A study of Mus musculus with 8 samples.

Results

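The 10 genes described here are activation genes of microglia, the resident macrophages of the brain, grouped around *Gpnmb*. They are *Gpnmb*, *Cst7*, *Spp1*, *Lgals3*, *Lpl*, *Cd9*, *Cd63*, *Ch25h*, *Csf2* and *Fabp5*, and they were taken by name out of 20308 gene symbols with a value. All 10 have a value, and 9 had enough counts to be among the 13407 genes tested; *Csf2* did not. RNA was sequenced from CD11b+ cells that had been pulled down with magnetic beads from the right brain hemisphere after myelin removal. CD11b is a surface integrin of microglia and other myeloid cells. The 4 CSF1 OE mice carry a transgene for the secreted form of CSF1, the growth factor on which microglia depend, which the TRE/tTA system expresses in a subset of GFAP+ cells. The 4 control mice are described in the labels only as controls for this overexpression, and which alleles they carry is not given in the sources used here. Mice of both genotypes were F1 animals of C57Bl/6 and CD1 and were killed at 14 or 15 days of age, with 1 library per mouse and no age per mouse. The transgene is thus driven in another cell type than the one sequenced. Mice are named here by genotype and animal number.

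Disease-associated microglia are a state described around amyloid plaques and in degenerating tissue, in which homeostatic genes recede and genes for lysosomes, lipid handling and phagocytosis come up. Receptors such as TREM2 and ligands such as APOE take part in the switch. Cells with a related set of genes also occur in the white matter of the healthy brain shortly after birth. Within the set, *Gpnmb* encodes a transmembrane glycoprotein of lysosomes and the cell surface, *Cst7* the cysteine protease inhibitor cystatin F, and *Spp1* the secreted integrin ligand osteopontin. *Lgals3* encodes galectin-3, a lectin that binds sugars on damaged lysosomes, and *Cd9* and *Cd63* encode tetraspanins, which organise membrane domains. *Lpl* encodes lipoprotein lipase and *Fabp5* a carrier of fatty acids, *Ch25h* the enzyme that makes 25-hydroxycholesterol, and *Csf2* the cytokine GM-CSF.

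In GRCm38, the genome that the mm10 build named in the submitters' processing notes corresponds to, GENCODE places the protein-coding gene *Gpnmb* on the forward strand at chr6:49036546-49070929. *Cst7* lies on the forward strand at chr2:150570415-150578944 and *Spp1* on the forward strand at chr5:104435118-104441050. The promoters of these genes are shown because they are the members whose CSF1 OE values all lay above all control values with a fold change over 2. RefSeq's table for GRCm38.p6 held a promoter for 8 of the 10 members. Each sequence below runs 5′ to 3′ on the forward strand, from 250 bases before the RefSeq start of transcription to 20 bases after it, at chr6:49036268-49036537 for *Gpnmb*, chr2:150570165-150570434 for *Cst7* and chr5:104434861-104435130 for *Spp1*. Capitals mark an AP-1 motif in *Gpnmb* and a PU.1 motif in *Spp1*.
Gpnmb: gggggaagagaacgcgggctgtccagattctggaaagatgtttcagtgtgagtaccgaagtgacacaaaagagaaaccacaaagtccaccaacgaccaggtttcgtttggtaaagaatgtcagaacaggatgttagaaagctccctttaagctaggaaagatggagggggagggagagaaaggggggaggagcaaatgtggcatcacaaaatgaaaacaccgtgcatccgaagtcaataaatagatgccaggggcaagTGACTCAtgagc
Cst7: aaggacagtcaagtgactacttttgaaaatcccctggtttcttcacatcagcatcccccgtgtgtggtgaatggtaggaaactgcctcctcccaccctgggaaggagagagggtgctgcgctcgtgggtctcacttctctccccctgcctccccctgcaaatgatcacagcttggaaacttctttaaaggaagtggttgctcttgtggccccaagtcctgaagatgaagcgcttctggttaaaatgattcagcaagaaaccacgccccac
Spp1: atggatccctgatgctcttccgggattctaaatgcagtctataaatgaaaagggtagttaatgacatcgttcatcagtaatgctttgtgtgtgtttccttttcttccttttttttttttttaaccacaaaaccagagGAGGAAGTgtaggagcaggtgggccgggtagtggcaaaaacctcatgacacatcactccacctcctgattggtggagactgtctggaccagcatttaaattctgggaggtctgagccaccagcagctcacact
The motifs searched on both strands, in a window of 300 bases that reaches 50 bases past the start, were TGACTCA for AP-1, TCACGTG or TCATGTG for the MiT family, and GAGGAAGT for PU.1, and their letters do not overlap one another. They were chosen after the promoters had been seen. TGACTCA lies from 9 to 15 bases past the start of *Gpnmb*, and 5.2% of 32851 promoters of the same length hold it. GAGGAAGT lies from 113 to 106 bases before the start of *Spp1*, and 3.2% of promoters hold it. The MiT letters, which 7.4% of promoters hold, were in 0 of the 8 windows. These matches describe the letters only.

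The libraries held between 12908195 and 15475488 counts in control and between 12053280 and 14356538 in CSF1 OE mice, so that depth was alike in both genotypes. Levels are given as counts per 1000000 counts (CPM) after TMM scaling, and a count of 3 in a library corresponds to between 0.177 and 0.266 CPM. All 15 markers of homeostatic microglia were tested, none was at 0, and their summed level ran from 25196 to 44545 CPM in control mice and from 32118 to 46365 CPM in CSF1 OE mice. Control 1934 had the lowest of these sums and CSF1 OE 2019 the highest. The targeted gene, *Csf1*, had 364, 310.1, 139 and 317 CPM in control mice 1827, 1872, 1874 and 1934, and 388, 400.1, 333 and 167 CPM in CSF1 OE mice 1931, 1932, 1936 and 2019. These ranges overlap, and since the transgene is expressed in GFAP+ cells, its level in CD11b+ cells does not check the labels.

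Of the 9 members tested, *Gpnmb* was called, which means a Benjamini-Hochberg adjusted p under 0.05 over all genes tested in edgeR's quasi-likelihood test with a fold change under 0.7 or over its reciprocal. Among all genes, 0.388% were called higher in CSF1 OE mice and 0.0522% lower. *Gpnmb* rose 5.61-fold, *Cst7*, *Spp1* and *Lgals3* had fold changes between 2.09 and 2.41 that missed the threshold, and *Cd9* had nearly the same mean in both genotypes. At an unadjusted p under 0.05, 5 of the 9 were higher and 0 lower, against 10.1% and 6.44% of all genes. All CSF1 OE values lay above all control values for 4 members, against 6.84% of all genes. The median log2 fold change was 0.41 over the 9 members and −0.034 over all genes tested. In these bulk libraries, more cells with a gene and more RNA of it per cell cannot be told apart. The same holds for fewer cells and less RNA.

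**Figure D1:**
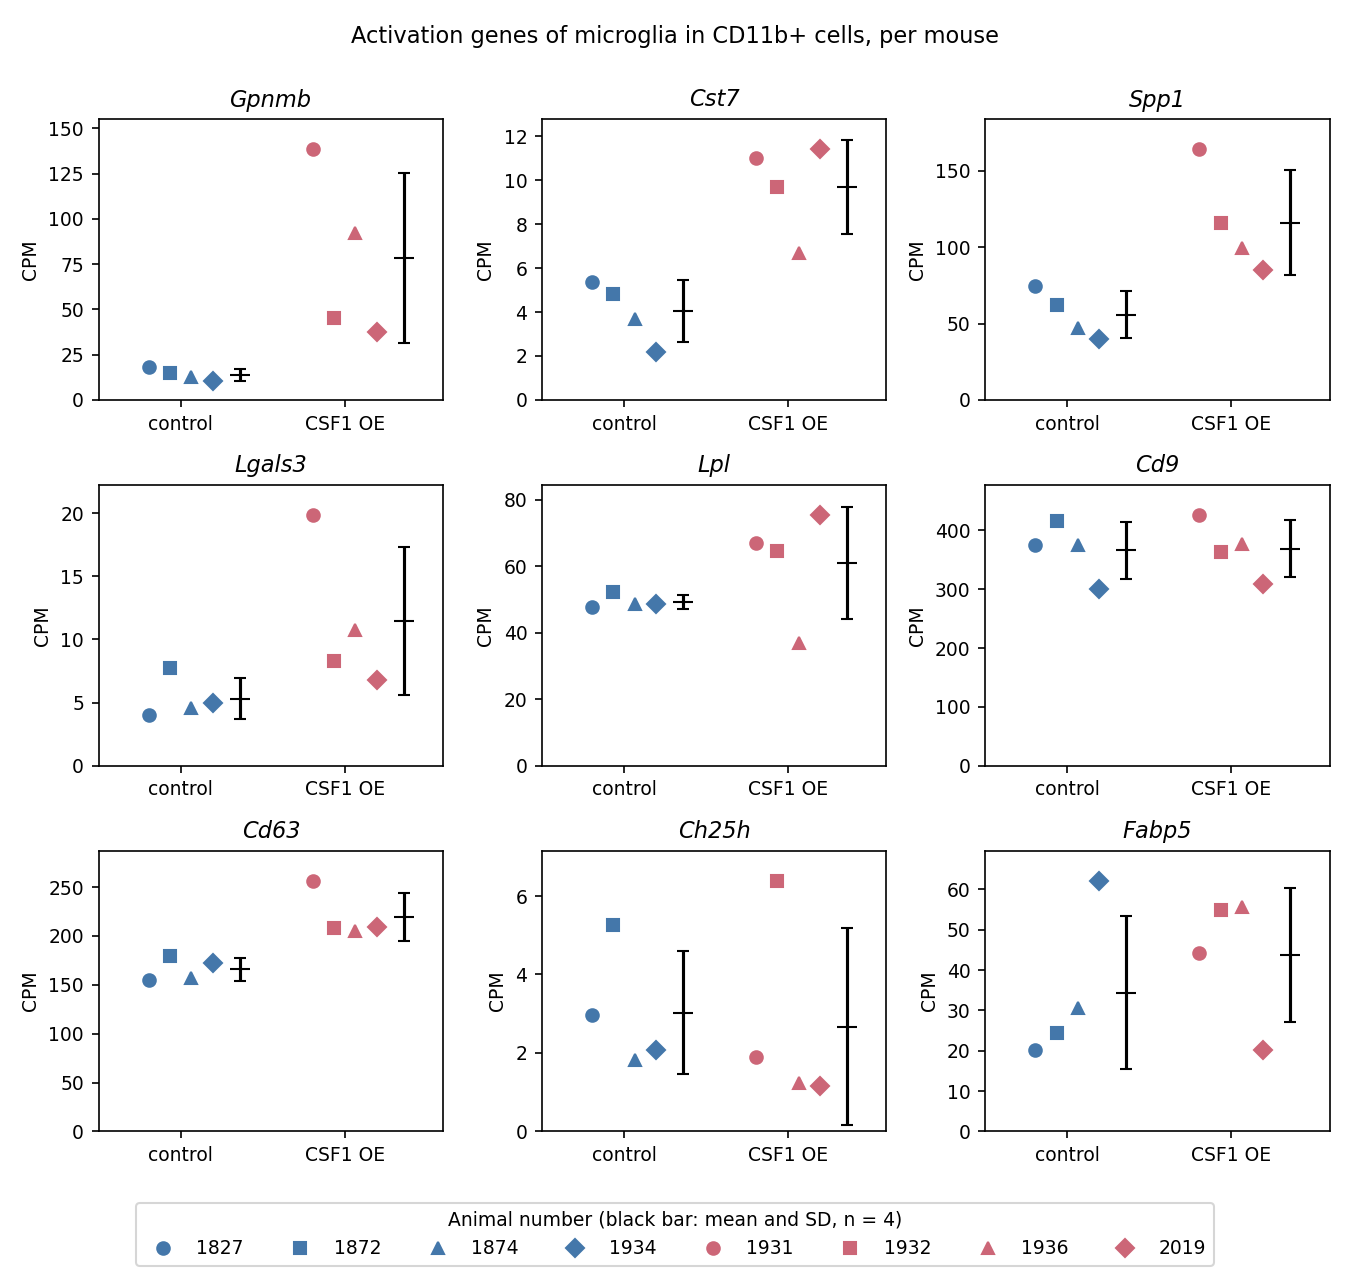
CPM of the 9 members tested in each mouse (vertical axes, linear and starting at 0), with control mice in blue, CSF1 OE mice in red, 1 symbol per animal, and a black bar for the mean and SD of 4 mice. The genotypes are apart for *Gpnmb*, *Cst7*, *Spp1* and *Cd63*, and *Gpnmb* in CSF1 OE mice runs from 37.7 to 138.5 CPM.

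*Gpnmb* was at 18.1, 14.8, 12.4 and 10.5 CPM in control mice 1827, 1872, 1874 and 1934. In CSF1 OE mice 1931, 1932, 1936 and 2019 it was at 138.5, 45.1, 92.2 and 37.7 CPM. All CSF1 OE mice were above all controls, with CSF1 OE 1931 and 1936 well above 1932 and 2019. The mean was 13.97 ± 3.29 CPM in control mice and 78.4 ± 46.8 CPM in CSF1 OE mice (SD, n = 4 each). This is a log2 fold change of 2.49 ± 0.41 (SE), with a 95% confidence interval from 1.56 to 3.42 and an adjusted p of 0.0492 (edgeR), just inside the threshold. The call was lost with each of 6 mice left out singly (control 1872, 1874 and 1934, and CSF1 OE 1931, 1932 and 1936), while over the leave-one-out fits the log2 fold change stayed between 2.07 and 2.72. In those 6 fits between 0.0147% and 0.0958% of all genes were called higher. The call was kept without control 1827 or CSF1 OE 2019. With upper-quartile factors, library totals or a robust prior in place of the settings used, the adjusted p was 0.0530, 0.0592 and 0.0530 (edgeR), which also ended the call.

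The animal numbers divide the mice into those from 1931 to 1936, with 1 control and 3 CSF1 OE mice, and the others, with 3 controls and 1 CSF1 OE mouse. The labels give no batch, but numbers and genotype overlap in this way. Within the range from 1931 to 1936 the log2 difference of *Gpnmb* was 2.97, and in the other mice it was 1.33. Each of these rests on 1 mouse on one side and has no test. In a fit with a term for the range, the log2 fold change was 2.20 with an adjusted p of 0.0336, and 2.25% of all genes were then called higher and 7.24% lower.

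*Cst7*, whose product inhibits lysosomal cysteine proteases of the cathepsin family, was at 5.37, 4.84, 3.70 and 2.19 CPM in control mice 1827, 1872, 1874 and 1934. The CSF1 OE mice 1931, 1932, 1936 and 2019 had 11.005, 9.70, 6.68 and 11.4 CPM. The genotypes did not overlap, and CSF1 OE 1936 was nearest to the controls. Its log2 fold change was 1.27 ± 0.30 (SE; adjusted p = 0.0894, edgeR). It was 1.96 within the range from 1931 to 1936 and 1.29 in the other mice. With DESeq2 the adjusted p was 0.00218, and with the term for the range 0.0249, so that both of these called *Cst7*. DESeq2 called 1.98% of all genes higher, *Gpnmb* and *Spp1* included.

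*Spp1* was at 74.3, 61.9, 46.9 and 39.7 CPM in control mice 1827, 1872, 1874 and 1934. It was at 164.2, 115.7, 99.3 and 85.3 CPM in CSF1 OE mice 1931, 1932, 1936 and 2019. Here too every CSF1 OE mouse was above every control, and the highest control and the lowest CSF1 OE mouse were close. The log2 fold change was 1.06 ± 0.24 (SE; adjusted p = 0.0858, edgeR), and DESeq2 called it with an adjusted p of 0.00204. The difference was 1.63 within the range from 1931 to 1936 and 0.51 in the other mice. *Spp1* overlaps the annotated gene *Gm42793* on the same strand, and 5 of its 8 counts were not whole, which shows that some reads were shared out between genes or copies.

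*Lgals3* was at 4.03, 7.75, 4.54 and 4.97 CPM in control mice 1827, 1872, 1874 and 1934. In CSF1 OE mice 1931, 1932, 1936 and 2019 it was at 19.9, 8.30, 10.8 and 6.82 CPM. CSF1 OE 2019 alone lay within the control range, below control 1872, and CSF1 OE 1931 was far above the others. The log2 fold change was 1.10 ± 0.36 (SE; adjusted p = 0.186, edgeR), with an interval from 0.30 to 1.91. Without single mice it ranged from 0.70 to 1.34, and it was 1.26 within the range from 1931 to 1936 and 0.38 in the other mice.

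Both tetraspanins were abundant. *Cd63*, a tetraspanin of late endosomes and lysosomes, was at 155, 179, 157 and 172 CPM in control mice 1827, 1872, 1874 and 1934 and at 257, 208, 205 and 209 CPM in CSF1 OE mice 1931, 1932, 1936 and 2019. All CSF1 OE mice were above all controls, and 3 of them lay close together with CSF1 OE 1931 apart. Its log2 fold change was 0.41 ± 0.098 (SE, adjusted p = 0.0937, edgeR), and it was alike in both ranges of animal numbers, at 0.37 and 0.36. With DESeq2 the adjusted p was 0.0105, but the log2 fold change of 0.41 lay within the fold limits, so *Cd63* was not called. *Cd9*, found mostly at the cell surface, was at 375, 417, 375 and 300.4 CPM in the controls and at 427, 363, 378 and 309 CPM in the CSF1 OE mice, in the same order. These ranges overlap almost fully. Its log2 fold change was 0.0090 ± 0.13 (SE; adjusted p = 0.975, edgeR) with an interval from −0.29 to 0.31, so that a change of over 0.31 in either direction lies outside it. Within the range from 1931 to 1936 the difference was 0.37 and in the other mice −0.33, of opposite sign. *Cd9* shares its position with *Gm28809* and *Gm26728* on the opposite strand, and none of its 8 counts was whole; the kit did not mark strand.

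*Lpl*, which releases fatty acids from lipoproteins, was at 47.7, 52.1, 48.5 and 48.6 CPM in control mice 1827, 1872, 1874 and 1934. It was at 67.0, 64.7, 36.8 and 75.4 CPM in CSF1 OE mice 1931, 1932, 1936 and 2019. Controls were nearly the same, while 3 CSF1 OE mice were above all of them and CSF1 OE 1936 was below all of them. With that, the log2 fold change was 0.31 ± 0.19 (SE; adjusted p = 0.450, edgeR). It was 0.16 within the range from 1931 to 1936 and 0.61 in the other mice. In 7 of 8 libraries its count was not whole.

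*Fabp5* was at 20.3, 24.4, 30.7 and 62.2 CPM in control mice 1827, 1872, 1874 and 1934 and at 44.2, 55.0, 55.5 and 20.2 CPM in CSF1 OE mice 1931, 1932, 1936 and 2019. A control had the highest value and a CSF1 OE mouse the lowest, and the ranges overlap. The log2 fold change was 0.35 ± 0.40 (SE; adjusted p = 0.695, edgeR). Within the animal numbers from 1931 to 1936 the log2 difference was −0.28, and in the other mice it was −0.29, of opposite sign in both. The only control in the first range is 1934, and the only CSF1 OE mouse among the others is 2019. Both signs therefore rest on the mice with the highest and the lowest *Fabp5*, and have no test. With control 1934 and CSF1 OE 2019 both left out, a comparison added after the values had been seen, the log2 fold change was 1.04 and 0.775% of all genes were called higher, *Fabp5* included. These are the control with the most *Fabp5* and the CSF1 OE mouse with the least, so leaving them out fixes a rise and a smaller spread, and this call supports nothing.

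The mice with most *Fabp5* were those with the lowest summed markers of homeostatic microglia. From the lowest to the highest *Fabp5* (CSF1 OE 2019, then control 1827, 1872 and 1874, then CSF1 OE 1931, 1932 and 1936, then control 1934), these sums were 46365, 44475, 44545, 39299, 36747, 32173, 32118 and 25196 CPM. Their order is the reverse of that of *Fabp5* but for control 1827 and 1872, whose sums are close. Markers of other cell types moved as well: the 8 neuron markers summed to 359 CPM in control 1934 and to 45.5 CPM in CSF1 OE 2019, with the other 6 mice between 85.3 and 214 CPM. The 8 astrocyte markers ran from 382 to 708 CPM in control mice and from 324 to 744 CPM in CSF1 OE mice, and the 8 markers of oligodendrocyte precursor cells (OPCs) from 161 to 329 and from 90.9 to 344 CPM. In both lists CSF1 OE 2019 had the lowest sum and CSF1 OE 1936 the highest. Endothelial markers summed to 1117 CPM in control 1934, the highest, and to 335 CPM in CSF1 OE 2019, the lowest, and the 10 oligodendrocyte markers to 6533 and 1703 CPM, again the ends of their range. All 10 endothelial markers were lower in CSF1 OE mice, with 0 called, 5 at an unadjusted p under 0.05 (edgeR) and a median log2 fold change of −0.70. Mural cell markers ran from 163 to 354 CPM in control mice and from 156 to 297 CPM in CSF1 OE mice, and those of choroid plexus and ependyma from 3792 to 5131 and from 1506 to 5938 CPM. No marker of these lists was at 0. *Fabp5* is also expressed by glia and neurons, and their part in its values was not tested.

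**Figure D2:**
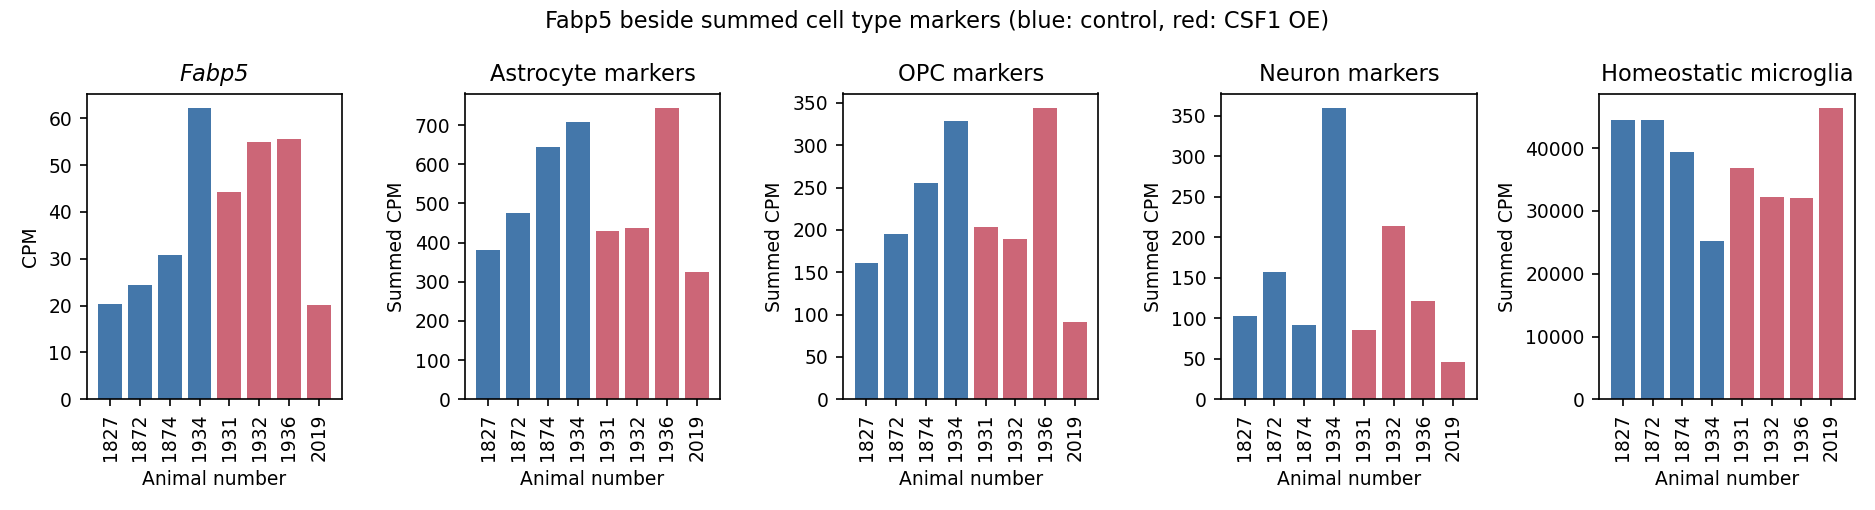
CPM of *Fabp5* and summed CPM of 8 astrocyte, 8 oligodendrocyte precursor cell (OPC), 8 neuron and 15 homeostatic microglia markers (vertical axes, linear and starting at 0) in each mouse by animal number (control blue, CSF1 OE red). Control 1934 has the highest *Fabp5* at 62.2 CPM with the lowest microglia sum, and CSF1 OE 2019 the lowest *Fabp5* at 20.2 CPM with the highest microglia sum.

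*Ch25h*, an enzyme gene that inflammatory stimuli induce, was at 2.96, 5.26, 1.81 and 2.07 CPM in control mice 1827, 1872, 1874 and 1934 and at 1.89, 6.39, 1.23 and 1.15 CPM in CSF1 OE mice 1931, 1932, 1936 and 2019. One mouse of each genotype was high and the others low. *Ch25h* had a log2 fold change of −0.18 ± 0.60 (SE; adjusted p = 0.900, edgeR) with an interval from −1.53 to 1.18, from counts between 13 and 87 and with a log2 SD of 0.65 in control and 1.09 in CSF1 OE mice, so that a change was not detectable beyond this spread. The difference was 0.25 within the range from 1931 to 1936 and −1.31 in the other mice, and it was 0.23 without control 1872 and −1.08 without CSF1 OE 1932 (adjusted p = 0.895 and 0.285, edgeR). The 12 immediate early and heat shock genes, which handling of tissue can induce, summed to 17077, 17500, 12081 and 11771 CPM in the controls and to 9772, 21094, 8298 and 11172 CPM in the CSF1 OE mice in the same order. Control 1872 and CSF1 OE 1932 were the highest of their genotype in *Ch25h* and in this sum, but not in each of its genes. CSF1 OE 1932 had the most *Hspa1a* of the CSF1 OE mice (3610 CPM) and the least *Ier2* (173 CPM). Control 1827 had more *Hspa1a* than control 1872 (2827 against 1933 CPM), and control 1874 had more *Ier2* (317 against 189 CPM). Whether these genes have a part in the level of *Ch25h* was not tested. *Ch25h* shares its position with *Gm26902* on the opposite strand.

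*Csf2* had 1, 1, 0 and 4 counts in control mice 1827, 1872, 1874 and 1934 and 0, 2, 1 and 0 counts in CSF1 OE mice 1931, 1932, 1936 and 2019. In 7 of the 8 mice it was at or under 3 counts, so no fold change is given, and GM-CSF RNA was barely detected in either genotype at this depth. It also overlaps *Gm12223* on the opposite strand. Its receptor genes were expressed: *Csf2ra*, the alpha chain, averaged 28.02 ± 6.58 CPM in control mice and 41.2 ± 11.3 CPM in CSF1 OE mice (SD, n = 4 each; log2 fold change 0.56, adjusted p = 0.253, edgeR).

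**Figure D3:**
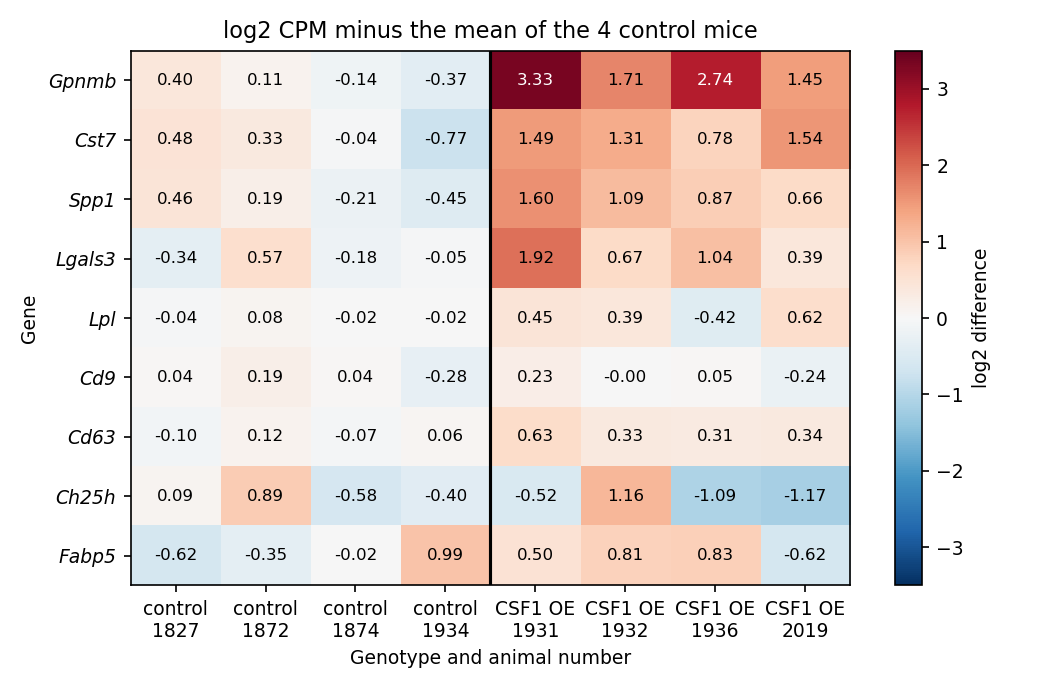
Log2 CPM minus the mean of the 4 control mice for the 9 members tested (rows) in each mouse (columns, controls left of the black line), from blue (lower) to red (higher). CSF1 OE 1931 is the darkest column, with 3.33 for *Gpnmb*, and CSF1 OE 1936 and 2019 differ from it by gene.

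Per kilobase of transcript, the members covered a wide range of levels in control mice. The means were 299 CPM per kilobase for *Cd9*, 149 for *Cd63*, 37.0 for *Spp1*, 34.8 for *Fabp5*, 11.96 for *Lpl*, 4.08 for *Cst7*, 3.77 for *Gpnmb*, 3.75 for *Lgals3* and 2.18 for *Ch25h*. Neighbours whose ranges over the 4 controls overlap are *Spp1* and *Fabp5*, and the last 4 genes among themselves. In CSF1 OE mice *Gpnmb* stood at 21.2 CPM per kilobase, above the 14.8 of *Lpl*, with a range from 10.2 to 37.4 that overlaps those of *Fabp5* (20.4 to 56.3) and *Lpl* (8.94 to 18.3). The other means were 300.5 for *Cd9*, 198 for *Cd63*, 77.0 for *Spp1*, 44.3 for *Fabp5*, 9.84 for *Cst7*, 8.06 for *Lgals3* and 1.92 for *Ch25h*. The mean of *Gpnmb* was thus below that of *Lpl* in control mice and above it in CSF1 OE mice, where the ranges overlap, and its range overlaps that of *Cst7* in both genotypes.

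Over the CSF1 OE mice the spread of *Gpnmb* was wide. Its highest CSF1 OE mouse had 3.67 times the level of its lowest, against 1.72 times in control mice. The SD of its log2 CPM was 0.88 in CSF1 OE and 0.33 in control mice, and 94.5% of all genes tested had a smaller SD in CSF1 OE mice. Each mouse's absolute deviation from its genotype's median of log2 CPM was taken once, and these deviations were shuffled over all 70 assignments. In this two-sided permutation test the difference in mean deviation of 0.47 gave p = 0.0286, the smallest it allows. The medians were not recomputed for each assignment, so this p is approximate. Adjusted over all genes tested this p was 0.459, and the spread of 3.51% of all genes was wider in CSF1 OE mice at an unadjusted p under 0.05. With CSF1 OE 1931 left out the difference in deviation was 0.17 with a permutation p of 0.686. With any other CSF1 OE mouse left out it was between 0.28 and 0.37 with a permutation p between 0.343 and 0.600. An odd number of mice leaves the middle one with no deviation, which lowers the mean deviation. The SD rose to 0.96 without CSF1 OE 1932 and to 1.02 without 1936, and fell to 0.68 without 1931 and to 0.82 without 2019. These p values therefore do not show how far the spread rests on any single mouse.

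*Lpl* was nearly constant in control mice, with an SD of 0.057 in control and 0.46 in CSF1 OE mice. Only 4.39% of all genes had a smaller SD in control mice, and the difference in deviation of 0.24 gave a permutation p of 0.171. *Lgals3* had SDs of 0.40 and 0.66 and *Ch25h* of 0.65 and 1.09 in control and CSF1 OE mice. *Cst7* went the other way, with 0.56 and 0.35. *Spp1* had 0.40 in both, *Cd9* 0.20 and 0.19, *Cd63* 0.10 and 0.15, and *Fabp5* 0.70 and 0.69. For 8 of the 9 members, the SD in CSF1 OE mice follows without the mouse whose removal lowered it most, picked with the values seen. Leaving out the most distant of a few values tends to lower any SD. No share over all genes was computed for this, so it is a description only. Without CSF1 OE 1931 the SD in CSF1 OE mice was 0.33 for *Lgals3*, 0.22 for *Spp1* and 0.017 for *Cd63*. Without CSF1 OE 1936 it was 0.12 for *Lpl* and 0.12 for *Cst7*. Without CSF1 OE 2019 it was 0.19 for *Fabp5* and 0.12 for *Cd9*, and without CSF1 OE 1932 it was 0.35 for *Ch25h*. For *Gpnmb* it stayed between 0.68 and 1.02 with any CSF1 OE mouse left out. In all, 6 of 9 members had the larger SD in CSF1 OE mice, as did 55.2% of all genes, and the median SD of all genes was 0.21 in control and 0.22 in CSF1 OE mice.

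The same mice were not high in every member. CSF1 OE 1931 had the highest value of its genotype in 5 of 9 members (*Gpnmb*, *Spp1*, *Lgals3*, *Cd9* and *Cd63*) and the lowest in 0. CSF1 OE 2019 had the lowest in 6, *Gpnmb* included, and the highest in 2, *Cst7* and *Lpl*. CSF1 OE 1936, second in *Gpnmb*, was lowest in *Cst7*, *Lpl* and *Cd63* and highest in *Fabp5*. Among the controls, 1872 was highest in 5 members and lowest in 0, and 1827 and 1934 were lowest in 4 each.

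**Figure D4:**
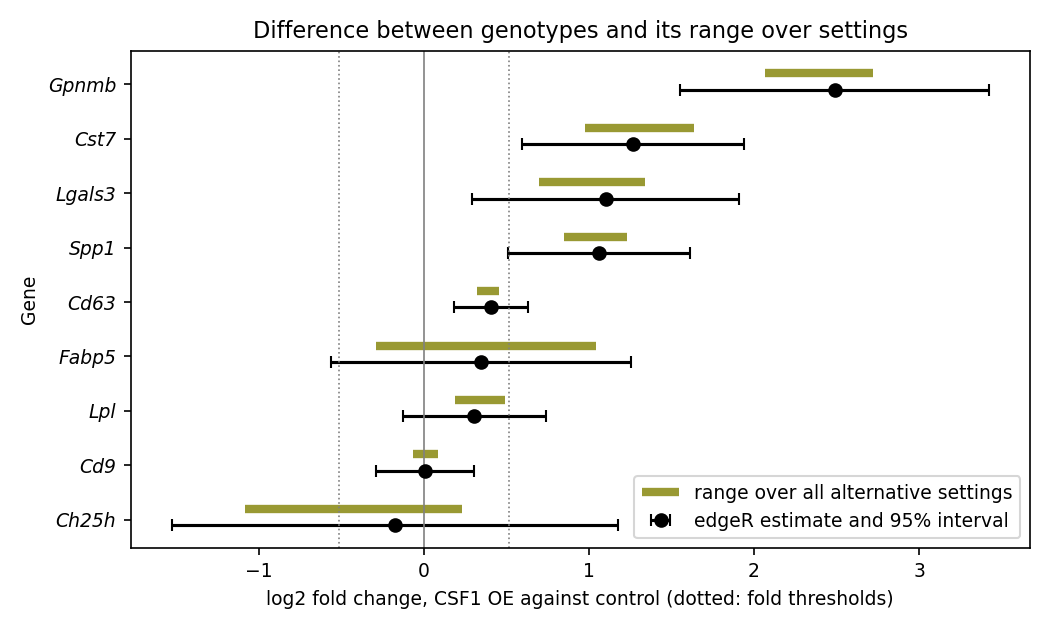
Log2 fold change of CSF1 OE over control for the 9 members tested (horizontal axis), with the 95% confidence interval of edgeR's quasi-likelihood test over 4 mice per genotype in black, the range over the alternative analyses in green, and dotted lines at the fold limits. *Gpnmb* at 2.49 is called, and the intervals of *Lpl*, *Cd9*, *Ch25h* and *Fabp5* include 0.

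The 8 genes most like *Gpnmb* were found by the root mean square difference of log2 CPM over the 8 libraries, after each gene had been centred on its control mean. They were *Unc5cl* (0.41), *Axl* (0.44), *Bcl2a1a* (0.47), *Isg15* (0.56), *Itgax* (0.60), *Ptpn7* (0.60), *Smim3* (0.61) and *Oas1a* (0.61), on the log2 scale. No member was among them: *Spp1*, *Cst7* and *Lgals3* were 55th, 60th and 66th of all genes tested, at 0.97, 0.97 and 0.996, while *Cd63* was 778th. *Axl*, *Itgax*, *Isg15*, *Ptpn7* and *Smim3* were themselves called higher, and *Unc5cl*, *Bcl2a1a* and *Oas1a* had adjusted p values of 0.0558 in each case (edgeR). Choosing genes by their likeness to *Gpnmb* already selects genes that rise in CSF1 OE mice, so these calls are no separate result. *Bcl2a1a* and *Oas1a* belong to families of near-identical genes whose reads could be split between copies, so their values are uncertain.

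**Figure D5:**
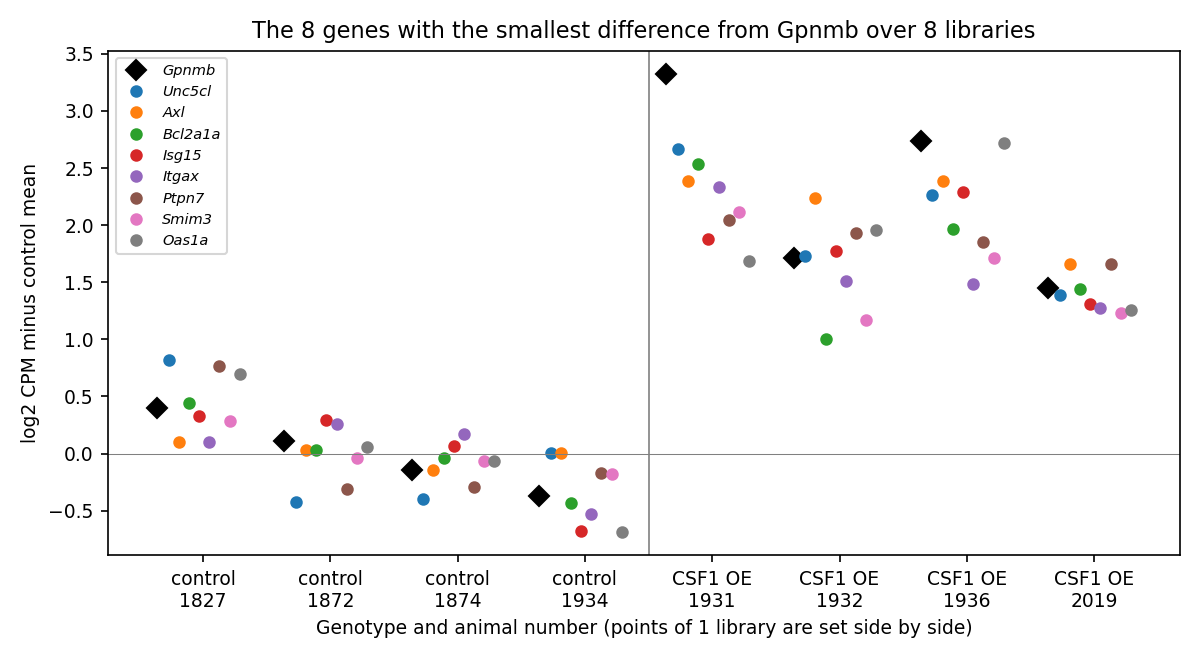
Log2 CPM minus the control mean (vertical axis) of *Gpnmb* (black diamonds) and the 8 genes with the smallest difference from it, in each of the 8 libraries (horizontal axis). All 9 genes are above 0.9 in all 4 CSF1 OE mice, and *Gpnmb* is highest of them in CSF1 OE 1931, at 3.33.

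Of 35 other genes of disease-associated microglia, 33 had a value and all of these were tested. *Clec7a* and *Lilrb4a* had no value under these symbols, so nothing can be said of them here. In CSF1 OE mice 2 were called higher, *Axl* and *Itgax*, and 0 lower. At an unadjusted p under 0.05, 14 were higher and 2 lower, and 9 had all CSF1 OE values above all control values, to be read beside the shares of all genes given above. The median log2 fold change was 0.27, and 25 of 33 were positive.

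*Axl*, a receptor tyrosine kinase that takes up dying cells and is induced by interferon, was at 29.0, 27.6, 24.4 and 27.1 CPM in control mice 1827, 1872, 1874 and 1934 and at 142, 128, 141 and 85.6 CPM in CSF1 OE mice 1931, 1932, 1936 and 2019. It rose by a log2 fold change of 2.20 ± 0.16 (SE; adjusted p = 0.00160, edgeR), and all CSF1 OE mice were above all controls. *Itgax*, which encodes the integrin CD11c, was at 10.8, 12.1, 11.3 and 6.92 CPM in the controls and at 51.4, 28.9, 28.5 and 24.5 CPM in the CSF1 OE mice. It rose by 1.70 ± 0.27 (SE; adjusted p = 0.0431, edgeR), and both genes share their lowest CSF1 OE mouse, 2019, with *Gpnmb*. The largest negative log2 fold change of the list was that of *Dkk2*, an antagonist of Wnt signals, at −1.55 ± 0.41 (SE; adjusted p = 0.119, edgeR).

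Genes related to single members gave the following counts, and none in these 8 groups was called. Of 14 other tetraspanins, 8 were higher and 6 lower with a median log2 fold change of 0.064, between −0.19 for *Tspan3* and 1.10 for *Tspan32*. Of 9 genes for other galectins and for related or galectin-binding proteins, 6 were tested. Of these, 3 had all CSF1 OE values above all controls (6.84% of all genes), *Lgals1* included, which is also among the other disease-associated microglia genes. The largest was *Lgals3bp*, whose product binds galectin-3, with 74.4 ± 32.4 CPM in control mice and 229 ± 61.1 CPM in CSF1 OE mice (SD, n = 4 each; log2 fold change 1.62, adjusted p = 0.0552, edgeR), and *Lgalsl* was at −0.19. All 7 tested genes of other cystatins and the cysteine proteases they inhibit had positive log2 fold changes. These lay between 0.11 for *Ctsf* and 0.66 for *Ctsh* (adjusted p = 0.0626, edgeR), with a median of 0.15.

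Lipid genes were divided. Of 15 genes for fatty acid binding and lipases, 6 were higher and 9 lower with a median of −0.10, from *Cd36* at −0.50 to *Pparg* at 0.48. Of 12 genes for making, sensing or clearing oxysterols such as 25-hydroxycholesterol, 4 were higher and 8 lower with a median of −0.11, from *Cyp46a1* at −0.68 to *Insig1* at 0.22. The 8 osteopontin receptor genes had a median of 0.051, from *Itga4* at −0.23 to *Itgb5* at 0.22, and 0 had an unadjusted p under 0.05. The 8 tested genes for the GM-CSF receptor and related cytokines had a median of 0.13, from *Il3ra* at −0.90 to *Csf2ra*. The 4 MiT transcription factors, which drive lysosomal genes, were between −0.36 for *Tfec* and 0.19 for *Tfe3*.

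Other programmes and other cell types in the same libraries set the members in context. Of 15 homeostatic microglia genes, 6 were higher and 9 lower and 0 were called, with a median of −0.14, from *Fcrls* at −0.63 to *Siglech* at 0.23. All 12 cell cycle genes were higher, 10 with all CSF1 OE values above all controls (6.84% of all genes), and *Pcna*, the clamp of DNA replication, was called at a log2 fold change of 0.55 (adjusted p = 0.0499, edgeR). The largest of them was *Ccnb2* at 0.89 and the smallest *Tyms* at 0.34. All 10 markers of border macrophages were lower, 6 of them at an unadjusted p under 0.05, and their sums ran from 2984 to 4114 CPM in control mice and from 2122 to 3250 CPM in CSF1 OE mice. The 11 monocyte and neutrophil markers summed to between 81.2 and 138 CPM in control mice and between 56.9 and 256 CPM in CSF1 OE mice. The highest sum was in CSF1 OE 2019, the CSF1 OE mouse with the least *Gpnmb*. In that mouse the neutrophil genes *S100a9* and *Ngp* were at 82.4 and 43.8 CPM. The monocyte genes *Ly6c2* and *Ccr2* were at 1.68 and 12.1 CPM in it. No marker of either list was at 0, border macrophages and monocytes can express several members, and their part in the members' values was not tested.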

How the data were processed

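Libraries of CD11b+ cells, 4 per genotype, were grouped by the genotype in their labels, and no column was left unmapped. The authors mapped paired reads with Bowtie 1.0.0 to mm10 and made expected counts per gene with RSEM 1.2.7, which they deposited without normalization; the annotation they used is not given in the sources used here. A second deposited table, the authors' normalized signal (counts divided by a size factor per mouse), entered 1 alternative only. The library kit (TruSeq RNA v2) does not mark strand.

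Expected counts were rounded and compared by edgeR 4.0.16 under R 4.3.3 (TMM, filterByExpr, glmQLFit, glmQLFTest, no covariate), with Benjamini-Hochberg adjustment over all 13407 genes and the study's fold limits of 0.7 and its reciprocal. log2 CPM used a prior count of 2. Intervals and the 3-count floor cover counting error or spread between mice only. Every pair of the 8 libraries differed by a chi-square of at least 15.1 per gene, so none is a copy. Spread was tested by permuting the deviations from the genotype medians over 70 assignments. The medians were not recomputed, so these p values are approximate. Test code was checked on simulated data. Transcript lengths and positions came from GENCODE M21 and promoters from RefSeq.

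The 10 members and the lists (other disease-associated microglia genes, relatives of single members, cell cycle, stress and cell type markers) were chosen with earlier results of these data known. Named genes are the members, every called gene of a list, each list's extremes by log2 fold change (for cell type markers, those a result turns on), and the 8 genes nearest *Gpnmb*. Alternatives were DESeq2 1.42.0, upper-quartile factors, library totals, 2 other filters (any count, or 10 or more counts in each mouse), the robust option of the prior, limma 3.58.1 on log2 of the authors' signal plus 1, animal-number range as a covariate, each mouse left out, another prior count of 0.5 for the spread, and no fold limit. Leaving out control 1934 and CSF1 OE 2019 together, which stood at the ends of the microglia marker sums, was chosen later, with the data already seen.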

Additional observations from a re-analysis of the deposited data

Results flagged for a closer look

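Among the 18 groups of 4 mice formed by 9 members and 2 genotypes, 2 held a mouse far from the other 3 by Dixon's ratio at the 95% level, a rate at which chance picks out about 1 in 20 groups. *Cd63* was at 257 CPM in CSF1 OE 1931, with a ratio of 0.914, where the other CSF1 OE mice lay between 205 and 209 CPM. *Ch25h* was at 6.39 CPM in CSF1 OE 1932, with a ratio of 0.859, where the next CSF1 OE mouse was at 1.89 CPM. CSF1 OE 1932 also had the highest sum of immediate early and heat shock genes, but the least *Ier2* of the CSF1 OE mice. The part of these genes was not tested.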

How the results depend on the processing

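The number of members called was 1, and it became 3 with DESeq2 (*Gpnmb*, *Cst7* and *Spp1*, 1.98% of all genes higher), 0 with upper-quartile factors (0.119%), 0 with library totals (0.0522%), 0 with a robust prior (0.283%), 2 with the term for the range of animal numbers (*Gpnmb* and *Cst7*, 2.25%), 2 without both control 1934 and CSF1 OE 2019 (*Gpnmb* and *Fabp5*, whose rise the choice of mice fixes, 0.775%), and between 0 and 1 with single mice left out. In each edgeR fit with 0 called, 5 or 6 members were higher at an unadjusted p under 0.05. It was 1 with no filter beyond a count, with at least 10 counts in every library, with limma and with no fold limit. *Gpnmb* was higher in all 17 alternatives, called in 8 of them, with adjusted p values from 8.11e-08 to 0.183. The sign was the other one for *Cd9* with upper-quartile factors (−0.0091) and library totals (−0.041). With single mice left out *Cd9* was between −0.066 and 0.086 and *Ch25h* between −1.08 and 0.23. The sign of *Fabp5* was the other one with the range term (−0.29). There control 1934 and CSF1 OE 2019 each stand alone in their genotype within their range. Single mice left out gave between 4 and 9 members with the larger SD in CSF1 OE mice. No share over all genes was computed with mice left out, so this range is a description only. The difference in spread of *Gpnmb* kept its permutation p of 0.0286 without control 1827 or control 1934, and not without any other single mouse. A genotype left with an odd number of mice has a middle mouse with no deviation. These p values therefore do not show dependence on single mice. No paired analysis was possible because no animal number occurs in both genotypes. Scaling by library totals put the median over all genes at a log2 fold change of −0.094. With 4 mice per genotype, intervals such as that of *Ch25h* are wide, and counts of at most 4 leave *Csf2* without a comparison.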
